A study of Mus musculus with 8 samples.

Results

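The CDK inhibitor genes examined here were the 6 genes Cdkn1a, Cdkn1b, Cdkn2a, Cdkn2b, Cdkn2c and Cdkn2d, chosen by symbol from the 22367 protein-coding genes of the mm9 annotation. Every peak of 5-hydroxymethylcytosine (5hmC) that touched one of these genes, or 10 kb on either side of it, was taken from 6 genome-wide peak lists. The lists came from GLIB-Seq, in which a glucose is attached to each 5hmC, oxidized with periodate and coupled to biotin, so that fragments that carry 5hmC can be pulled down and sequenced. There was 1 library each of untransfected E14 embryonic stem cells (ESCs), embryonic fibroblasts (MEFs), adult brain, adult liver, E14 cells that carried a short hairpin RNA against GFP (shGFP) and E14 cells that carried one against Suz12 (shSuz12), a core subunit of Polycomb repressive complex 2 (PRC2). The MEFs and both tissues were from C57BL/6 mice, the tissues at 8 weeks of age, and the MEFs are labelled embryonic day 11, an earlier day than the one the methods give. E14 is a single ESC line, and both hairpin cultures were derived from it and selected with puromycin, so shGFP is the control that shares the transfection. Expression was not analysed here, so neither the cell identities nor the loss of Suz12 was checked.

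Cyclin-dependent kinases drive the cell cycle, and CDK inhibitors hold it back. The CIP/KIP inhibitors p21 (Cdkn1a) and p27 (Cdkn1b) bind complexes of cyclin and CDK, whereas the INK4 inhibitors p16 (Cdkn2a), p15 (Cdkn2b), p18 (Cdkn2c) and p19INK4d (Cdkn2d) bind Cdk4 and Cdk6 and block their union with D cyclins. Cdkn2a also encodes p19ARF from a separate first exon, and the Cdkn2a-Cdkn2b locus is a well-known target of Polycomb repression in proliferating cells. 5hmC is made by TET enzymes from 5-methylcytosine, which in mammals lies mostly in CpG dinucleotides.

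Each peak has a score, which MACS gives as 10 times the negative log10 of the p-value of that peak in its own list. The lists begin at unequal scores, 80 for ESCs and for liver, 50.02 for shGFP, 30.34 for shSuz12 and 30 for MEFs and for brain. They give peaks and not read counts, so depth is unknown. They hold between 130409 and 217026 peaks and cover between 83.5 and 207.9 Mb. With 1 library per condition there was no spread between replicates, no difference between libraries could be tested, and the order of values between libraries has no replicate check.

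The 6 loci lie on 4 chromosomes of mm9. Cdkn1a spans chr17:29227924-29237667 on the plus strand, Cdkn1b chr6:134870419-134875531 on the plus strand and Cdkn2d chr9:21092907-21095653 on the minus strand. On the minus strand of chromosome 4, Cdkn2a spans 88920377 to 88940557, Cdkn2b 88952198 to 88956941 and Cdkn2c 109333481 to 109339794. Positions are counted in bp from the annotated 5′ end of the gene, called the gene start, and are negative upstream. Cdkn1a has further transcript starts at 2793 bp (Cdkn1a-001) and 7228 bp (Cdkn1a-002). Cdkn2a has one at 34 bp and one at 12461 bp, that of p16, and Cdkn2c has 1 at 1817 bp.

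The sequences on which the results turn are shown here, read from the mm9 reference on the strand of the gene, with each CpG in capitals. The first pair is from Cdkn1a: the 300 bases just upstream of the gene start, chr17:29227624-29227923, which lay under a peak in ESCs alone, and a stretch of the first intron, chr17:29229762-29230061, that lay under a peak in every library but liver.
Cdkn1a upstream: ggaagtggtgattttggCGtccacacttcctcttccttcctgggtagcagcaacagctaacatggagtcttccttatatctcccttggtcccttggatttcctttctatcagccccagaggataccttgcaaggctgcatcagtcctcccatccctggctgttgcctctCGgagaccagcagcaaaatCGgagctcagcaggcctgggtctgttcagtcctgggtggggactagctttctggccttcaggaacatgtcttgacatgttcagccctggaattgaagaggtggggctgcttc
Cdkn1a intron: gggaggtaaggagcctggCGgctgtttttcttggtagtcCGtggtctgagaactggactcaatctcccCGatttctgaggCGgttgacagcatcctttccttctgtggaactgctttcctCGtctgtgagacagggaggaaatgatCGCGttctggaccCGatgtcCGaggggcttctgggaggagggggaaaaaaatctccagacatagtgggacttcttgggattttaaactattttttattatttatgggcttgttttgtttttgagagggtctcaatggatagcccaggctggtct

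The next pair shows the contrast at Cdkn1b between its CpG-rich upstream sequence, chr6:134870119-134870418, which no peak touched in any library, and a stretch downstream of the gene, chr6:134880562-134880861, that lay under a peak in every library but shGFP.
Cdkn1b upstream: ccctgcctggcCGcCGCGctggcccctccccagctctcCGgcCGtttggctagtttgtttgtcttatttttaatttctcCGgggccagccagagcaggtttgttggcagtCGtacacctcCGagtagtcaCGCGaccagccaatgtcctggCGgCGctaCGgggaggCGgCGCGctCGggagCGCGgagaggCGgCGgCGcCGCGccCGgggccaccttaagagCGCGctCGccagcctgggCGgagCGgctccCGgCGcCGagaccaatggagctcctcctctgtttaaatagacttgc
Cdkn1b downstream: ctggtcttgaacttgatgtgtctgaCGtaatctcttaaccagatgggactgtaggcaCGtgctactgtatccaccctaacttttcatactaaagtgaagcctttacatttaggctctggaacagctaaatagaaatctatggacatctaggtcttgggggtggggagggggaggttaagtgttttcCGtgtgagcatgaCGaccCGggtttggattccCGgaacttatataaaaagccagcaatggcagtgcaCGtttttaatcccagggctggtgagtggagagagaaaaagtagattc

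The last pair is from Cdkn2a: the sequence upstream of the p19ARF start, chr4:88940558-88940857, the richest in CpG of those shown and free of peaks in all libraries, and a stretch past the 3′ end of the gene, chr4:88918289-88918588, inside the noncoding gene Gm12606, that lay under a peak in the 3 ESC libraries and in no other.
Cdkn2a upstream: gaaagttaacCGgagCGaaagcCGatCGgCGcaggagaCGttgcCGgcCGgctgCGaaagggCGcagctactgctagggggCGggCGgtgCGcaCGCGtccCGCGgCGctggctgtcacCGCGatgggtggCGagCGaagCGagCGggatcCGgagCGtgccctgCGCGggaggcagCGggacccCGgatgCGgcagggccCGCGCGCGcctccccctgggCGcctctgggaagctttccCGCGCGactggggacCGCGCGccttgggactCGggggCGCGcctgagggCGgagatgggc
Cdkn2a downstream: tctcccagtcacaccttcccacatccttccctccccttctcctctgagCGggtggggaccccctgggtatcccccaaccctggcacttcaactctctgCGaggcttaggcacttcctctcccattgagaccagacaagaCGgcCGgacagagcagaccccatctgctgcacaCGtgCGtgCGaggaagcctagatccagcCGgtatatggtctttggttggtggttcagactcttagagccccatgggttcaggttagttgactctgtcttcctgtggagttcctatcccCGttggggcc

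In all, 96 peaks touched the 6 loci, of which 17 were in ESCs, 7 in MEFs, 10 in brain, 19 in liver, 19 in shGFP and 24 in shSuz12. Of these peaks 28 lay upstream of the gene, 32 touched it and 36 lay past its end, and 14 reached coding sequence. Cdkn1a had 30 of the peaks, Cdkn1b 26, Cdkn2d 21, Cdkn2a 11, Cdkn2c 7 and Cdkn2b 1. These counts add up lists with unequal lowest scores and windows of unequal length. All the peaks of Cdkn2d lay outside the gene. At least 1 peak was found at 4 of the 6 genes in ESCs, against 77.6% of all protein-coding genes, and at 2 in MEFs, against 75.8%. The same counts were 4 in brain (72.2% of all genes), 4 in liver (68.0%), 5 in shGFP (75.8%) and 6 in shSuz12 (76.2%). Longer genes have larger windows, so a fixed window of 10 kb on each side of the gene start was compared too. Peaks covered a median over the 6 genes of 6.23% of this window in ESCs, 0% in MEFs and brain, 11.0% in liver, 8.17% in shGFP and 5.78% in shSuz12. The median over all genes was 8.76, 5.65, 5.67, 6.46, 5.49 and 3.70%, respectively.

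**Figure D1:**
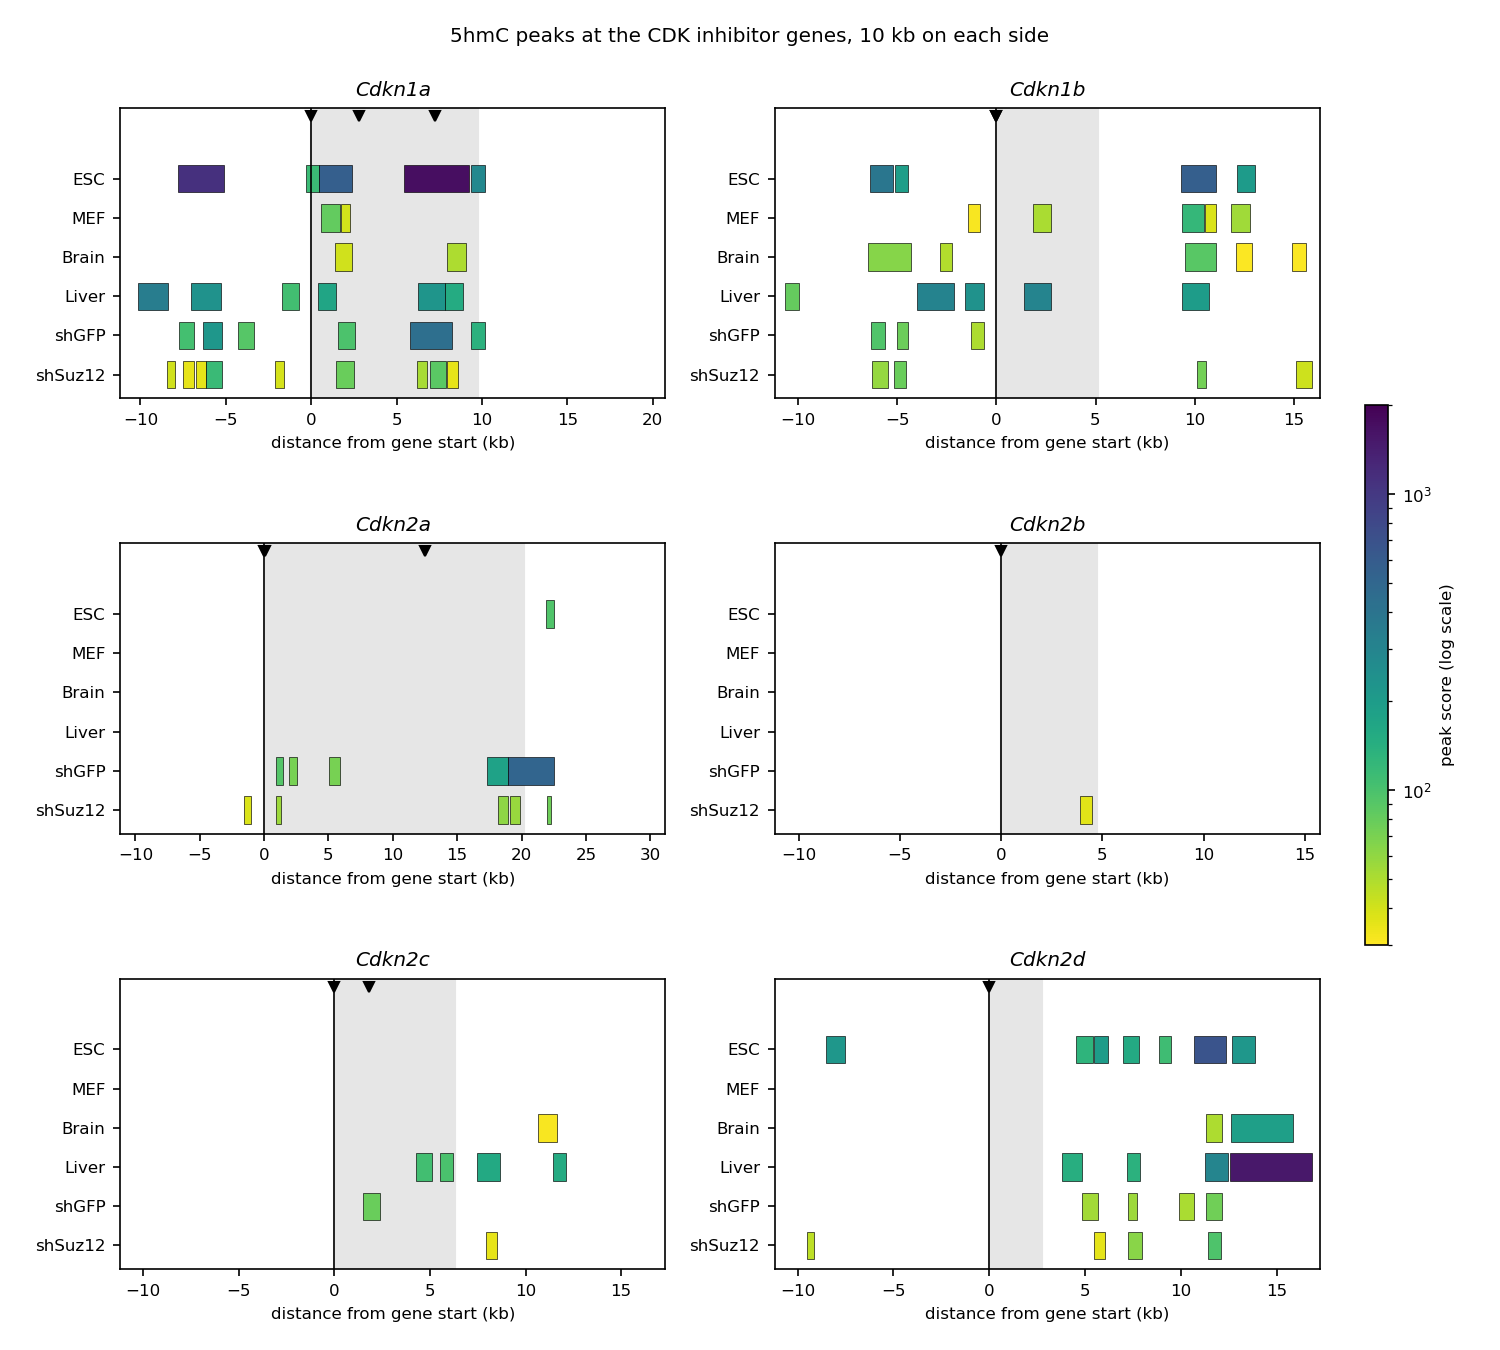
Peaks of 5hmC at each gene in the 6 libraries, by distance from the gene start in kb; the grey band is the gene, triangles are annotated transcript starts, and the colour is the peak score on a log scale. Cdkn1a and Cdkn1b carried peaks in all 6 libraries, Cdkn2b in shSuz12 alone, and Cdkn2a in the ESC libraries alone.

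The question of the cell type comparison was how 5hmC in ESCs differs from that in differentiated cells. Over the merged windows of the 6 genes, 160483 bp in all, peaks covered 13.1% in ESCs, 12.5% in liver, 5.86% in brain and 3.66% in MEFs. Covered bp in MEFs were at most 50% of those in ESCs at 3 of the 4 genes with any in ESCs (42.6% of all such genes), in brain at 3 of 4 (32.4%) and in liver at 1 of 4 (35.0%). In the other direction ESCs had at most 50% of the covered bp of MEFs at 0 of 2 genes (19.7% of all genes), of brain at 1 of 4 (20.4%) and of liver at 1 of 4 (27.3%). Because the lists begin at unequal scores, a floor of 80 was also set for all of them, which leaves ESCs and liver as they were. The share covered was then 1.43% in MEFs and 1.05% in brain. At that score 2 genes had a peak in MEFs (53.1% of all genes), 2 in brain (43.7%), 3 in shGFP (66.8%) and 2 in shSuz12 (43.2%). Covered bp in MEFs were then at most 50% of those in ESCs at 4 of 4 genes (73.7% of all genes), and in brain likewise at 4 of 4 (77.6%). The reverse held at 0 of 2 genes against MEFs (9.20%) and at 0 of 2 against brain (5.21%). The low values of MEFs and brain at the 4 genes were thus common to most genes at this floor.

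Cdkn1a, which encodes p21, the inhibitor induced by p53, had more bp under peaks in ESCs than any of the other 5 genes. In ESCs its peaks lay at -7816 to -5095, -335 to 439, 453 to 2406, 5439 to 9234 and 9348 to 10153 bp, with scores of 1111, 114, 569, 1699 and 281. The peak with the score of 1699 covered all 477 bp of coding sequence, and 1.04% of the ESC list had a score as high. In liver 6 peaks lay at -10131 to -8383, -7070 to -5295, -1704 to -716, 409 to 1473, 6279 to 7807 and 7859 to 8881 bp, with scores of 341, 240.2, 107, 171, 224 and 154. MEFs and brain held far less. MEFs had peaks at 547 to 1712 and 1717 to 2259 bp with scores of 82.7 and 40.2, both in the first intron. Brain had 1 at 1417 to 2396 and 1 at 7934 to 9044 bp with scores of 40.5 and 50.2, both below the lowest score of the ESC and liver lists. Within 10 kb of the gene start, peaks covered 49.5% in ESCs, 40.0% in liver, 10.5% in brain and 8.54% in MEFs, and 4.01, 11.1, 37.7 and 40.2% of all genes, respectively, were covered at least as much in the same library.

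The first intron of Cdkn1a was the one place at the 6 loci that had a peak in every library, within 1 merged region of -335 to 2539 bp. The part shown above, 1838 to 2137 bp, lay upstream of the start of Cdkn1a-001, and holds 9 CpGs. The liver peak ended before it, at 1473 bp. The sequence just before that transcript start holds 19 CpGs in 300 bases and was under a whole peak in no library, although the shGFP and shSuz12 peaks reached into it. The gene start itself, 2793 bp upstream of the start of Cdkn1a-001, was under a peak in ESCs alone. Upstream of it, at -51 to -32 bp, is the sequence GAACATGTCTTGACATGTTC, which matches the p53 response element (2 half-sites with at most 1 base between them) with 1 mismatch. It was searched on both strands, as the half-site reads alike on both, and the tolerance of 1 mismatch was set after the sequence had been seen. Such a match was found in the 300 bases upstream of 0.148% of all protein-coding gene starts, and 2 were found in the windows of the 6 genes. The other, at Cdkn2b, was under no peak.

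Cdkn1b encodes p27, which restrains Cdk2 in resting cells, and its peaks lay almost wholly outside the gene. In ESCs they were at -6391 to -5211, -5123 to -4476, 9337 to 11083 and 12133 to 13066 bp, with scores of 388, 192, 572 and 204, and the gene itself had none. In MEFs they were at -1429 to -839, 1854 to 2770, 9339 to 10468, 10530 to 11091 and 11820 to 12784 bp, with scores of 31.4, 51.2, 121, 38.3 and 55.0. In brain they were at -6465 to -4297, -2868 to -2232, 9525 to 11084, 12101 to 12919 and 14909 to 15643 bp, with scores of 64.8, 48.6, 89.7, 31.0 and 30.7. The 4 cell types shared the region from 9337 to 11091 bp, which holds the highest score of the locus in ESCs, MEFs and brain. In liver the peaks were at -10655 to -9948, -4017 to -2127, -1589 to -624, 1410 to 2755 and 9376 to 10718 bp, with scores of 81.1, 303, 234, 299 and 201. Liver and MEFs, unlike ESCs and brain, thus had a peak in the gene, over its untranslated sequence in MEFs and also over 116 bp of coding sequence in liver. Peaks covered between 16.6% (MEFs) and 22.3% (liver) of the gene and its flanks, with 18% in ESCs and 21.5% in brain.

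**Figure D2:**
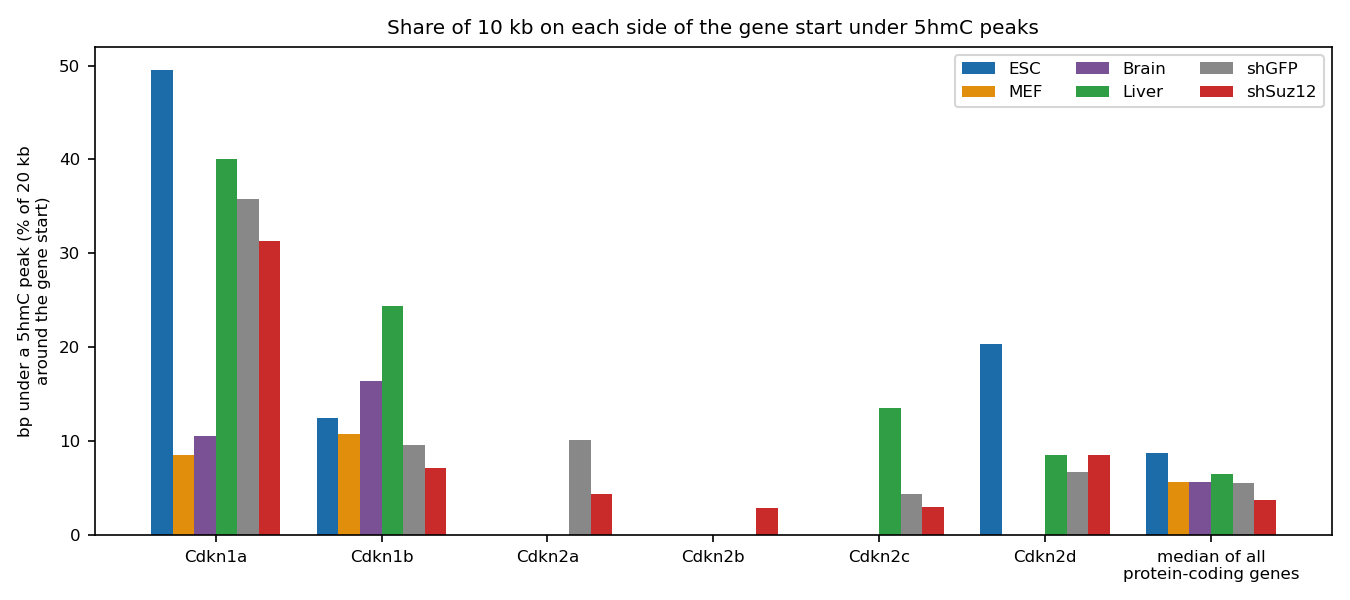
Percent of the 10 kb on each side of the gene start that lay under a 5hmC peak, by gene and library, with the median over all protein-coding genes at the right; each bar is 1 library. Cdkn1a stood above the median of all genes in the 6 libraries, and Cdkn2b stood at 0 in all but shSuz12.

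Cdkn2a encodes p16 and p19ARF, which act on the Rb and p53 pathways. It had no peak in MEFs, brain or liver, in the gene or within 10 kb. ESCs had 1, at 21906 to 22502 bp with a score of 95.4, which lies 1726 bp past the end of the gene. Its neighbour Cdkn2b, which encodes p15 and responds to TGF-beta, had none in any of the 4 cell types. The nearest peak to the Cdkn2b start lay 38290 bp away in ESCs, and in liver, where it lay farthest, 137482 bp away. The bare stretch around Cdkn2a was not equally long in all cell types, as between 10 and 100 kb from the gene peaks covered 5.74% in MEFs, 2.63% in ESCs, 0.381% in brain and 0% in liver.

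Cdkn2c, which encodes p18, was bare in ESCs and MEFs but not in liver. The liver peaks were at 4256 to 5087, 5540 to 6225, 7468 to 8645 and 11428 to 12095 bp, with scores of 106, 99.5, 158 and 153. The second of these covered 375 bp of coding sequence. Brain had 1 peak, at 10664 to 11628 bp with a score of 31.1, over the neighbouring noncoding genes Gm12811 and 9630013D21Rik. Peaks covered 12.8% of the gene and its flanks in liver and 3.67% in brain.

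Cdkn2d encodes p19INK4d and is a short gene with close neighbours, Kri1 downstream and Ap1m2 upstream. No library had a peak that touched Cdkn2d itself. In ESCs the peaks were at -8520 to -7532 bp, over Ap1m2, and at 4509 to 5435, 5474 to 6211, 7009 to 7803, 8852 to 9467, 10670 to 12369 and 12690 to 13889 bp, all over Kri1. Their scores were 217, 130, 199, 155, 111, 675 and 215. Liver had peaks at 3795 to 4843, 7199 to 7856, 11288 to 12467 and 12596 to 16868 bp, with scores of 143, 138, 296 and 1530.1. The last of these was among the highest 0.853% of the liver list and also reached Atg4d. Brain had peaks at 11341 to 12177 and 12626 to 15838 bp with scores of 50.1 and 191, and MEFs had none. The last peak in ESCs, liver and brain began 9944, 9850 and 9880 bp past the end of the gene. Most of each thus lay outside the 10 kb flank. In brain, peaks with a score of at least 80 covered only 121 bp of Cdkn2d and its flanks. The peaks near Cdkn2d therefore sat in its neighbours, and bp covered by them cannot be ascribed to the inhibitor gene.

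**Figure D3:**
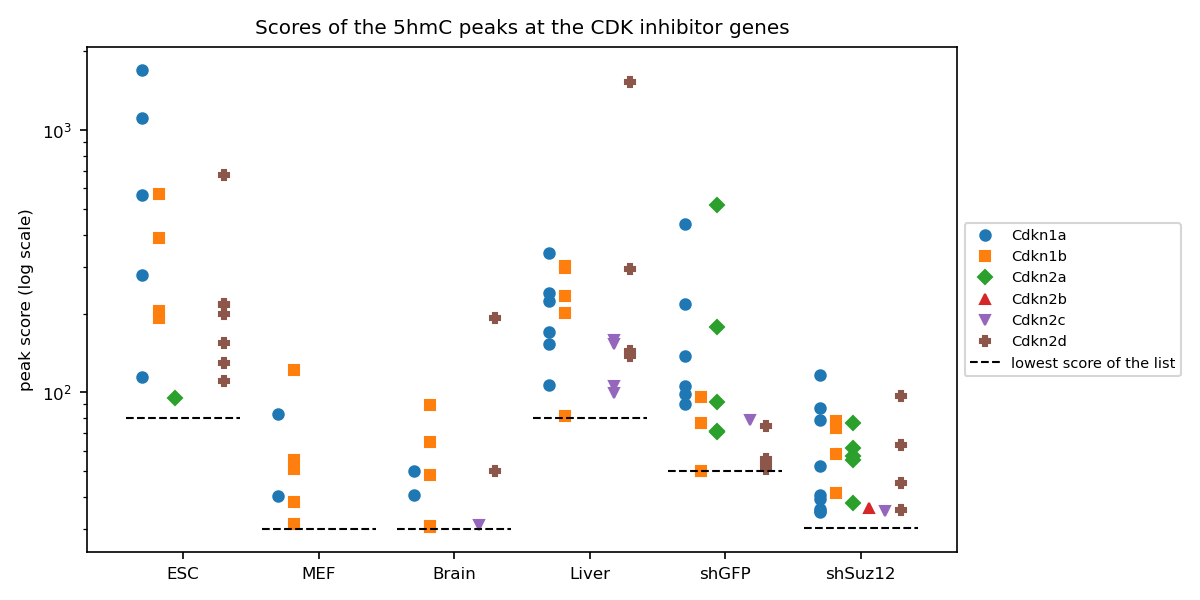
Scores of all 96 peaks at the 6 genes on a log axis, by library; each symbol is 1 peak, and the dashed line is the lowest score of that list. The highest was 1699 at Cdkn1a in ESCs, and 2 of 7 peaks in MEFs and 2 of 10 in brain reached a score of 80.

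Around the gene starts the 6 genes were near the shares of all genes. Within 1 kb of the gene start, a peak was found in ESCs at 1 of the 6 genes (Cdkn1a), where 31.9% of all protein-coding genes had one. The count was 2 in MEFs (Cdkn1a and Cdkn1b, 30.1% of all genes), 0 in brain (20%), 2 in liver (Cdkn1a and Cdkn1b, 29.4%), 2 in shGFP (Cdkn1b and Cdkn2a, 27.1%) and 1 in shSuz12 (Cdkn2a, 21.4%). These counts use the gene start and differ at the later starts of Cdkn1a and Cdkn2c. The Cdkn2c start at 1817 bp lay under a peak in shGFP and had none within 1 kb in any other library. Within 1 kb of the Cdkn1a-001 start, at 2793 bp, ESCs, MEFs, brain, shGFP and shSuz12 had a peak and liver had none. Within 1 kb of the Cdkn1a-002 start, at 7228 bp, all libraries but MEFs had one. At a score of at least 80 the counts were 1 in MEFs (12% of all genes), 0 in brain (5.45%), 1 in shGFP (19%) and 0 in shSuz12 (5.07%). Cdkn2b, Cdkn2c and Cdkn2d had no peak within 1 kb of the gene start in any library, as was so for 40.6% of all genes. The p16 start of Cdkn2a was also bare, with the nearest peak 4854 bp away in shGFP and farther in the others.

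The CpG density of the starts varied widely and did not follow the presence of a peak near them. Within 1 kb on each side, the start of Cdkn2a had 83.5 CpGs per kb, that of Cdkn1b 68.0, Cdkn2c 49.5, Cdkn2d 43.5 and Cdkn2b 42.5, whereas that of Cdkn1a had 8.50. Of these, Cdkn2a, Cdkn1b and Cdkn1a had a peak within 1 kb in some library. The value of Cdkn1a is that of its gene start. The 300 bases before that start hold 3 CpGs, whereas those before the start of Cdkn1a-001 hold 19. All 66 peaks of the genes other than Cdkn1a had fewer CpGs per kb than their own gene start. At Cdkn1a this held for 3 of 30 peaks, so for 69 of 96 in all, and its later starts were not used in this count. At the genes other than Cdkn1a the windows as a whole also had fewer CpGs per kb than the start. The same count was not made over all genes, so no share of all genes stands beside it. Over the 96 peaks the median was 16.2 CpGs per kb, from 5.65 to 46.1, and the gene windows as a whole had 11.4 to 21.5. The 300 bases upstream of the start were bare in every library at Cdkn2a (46 CpGs), Cdkn1b (33), Cdkn2d (20 CpGs), Cdkn2b (12), the p16 start (9) and Cdkn2c (5), against a median of 9 CpGs upstream of all gene starts. The stretches under peaks downstream of Cdkn2a and Cdkn1b hold 9 and 7, so the bare stretches lay both above and below those under peaks.

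The comparison of shGFP with shSuz12 asks whether 5hmC depends on PRC2. Peaks covered 12.6% of the merged windows in shGFP and 8.99% in shSuz12. Over the whole genome the bp covered in shSuz12 were 0.689 times those in shGFP, and the median ratio per gene was 0.668. In shSuz12 the covered bp were 50% or less of those in shGFP at 1 of the 5 genes with any, against 26.9% of all such genes. That gene was Cdkn2a. In the other direction 1 of 6 genes, Cdkn2b, had at most 50% in shGFP of the covered bp of shSuz12 (9.16% of all genes). At a score of at least 80 values of 50% or less were found at all 3 genes with any covered bp in shGFP (86.8% of all such genes), and the reverse at 1 of 2, Cdkn2d (4.27%). Such values were thus the rule among all genes at this floor.

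At Cdkn2a, shGFP had peaks at 922 to 1433, 1959 to 2577, 5001 to 5895, 17315 to 18910 and 18915 to 22487 bp, with scores of 91.5, 71.1, 70.7, 177 and 519.8. The last was among the highest 1% of the shGFP list, and the one before it covered 341 bp of coding sequence. In shSuz12 the peaks were at -1584 to -1047, 953 to 1288, 18201 to 18944, 19073 to 19891 and 21952 to 22285 bp, with scores of 37.9, 55.1, 61.4, 57.4 and 76.2. All but the first of these overlapped shGFP peaks and were narrower, and the shGFP peaks at 1959 and 5001 bp had no counterpart. The score of the first, 37.9, is below the lowest score of the shGFP list. Covered bp were 7195 in shGFP and 2771 in shSuz12, a ratio of 0.385. Of the 16964 genes with any covered bp in shGFP, 15.5% had a ratio as low. At a score of at least 80, shSuz12 had no peak at Cdkn2a and shGFP had 3.

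The control itself differed from untransfected ESCs at this locus. ESCs had 597 covered bp, so that shGFP had 12.1 times as many, where the median gene had 0.635 times as many. Of 17346 genes with any covered bp in ESCs, 3 had a ratio at least as high, Cdkn2a included. In all, 2 of the 5 inhibitor genes with peaks in shGFP, Cdkn2a and Cdkn2c, had at most 50% of those bp in ESCs (5.48% of all such genes), and 2 of the 4 with peaks in ESCs, Cdkn1b and Cdkn2d, had at most 50% in shGFP (28.8%). The only shGFP peak of Cdkn2c scored 78.3, below 80, the lowest score of the ESC list. At a score of at least 80, covered bp at Cdkn2a were 5681 in shGFP and 597 in ESCs. The value at Cdkn2a was singled out after it had been seen, and rests on 1 library of each. Between 10 and 100 kb from the gene, the share under peaks was 3.65% in shGFP, 2.63% in ESCs and 1.18% in shSuz12. The ESC peak at 21906 to 22502 bp falls at the end of the shGFP peak of 18915 to 22487 bp, and all 3 ESC libraries share 21952 to 22285 bp.

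**Figure D4:**
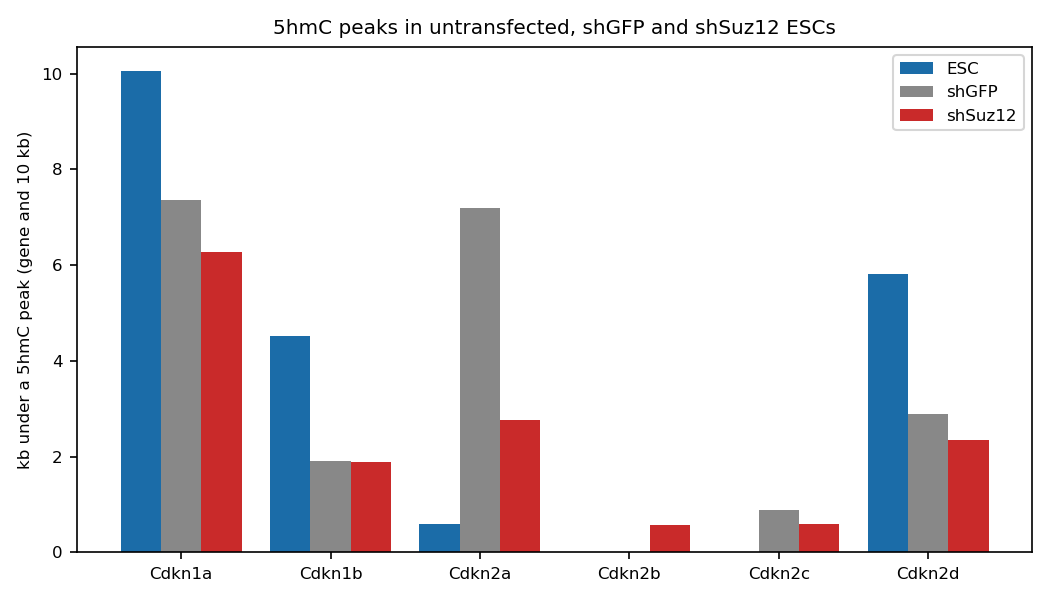
Kb under a 5hmC peak in each gene and its 10 kb flanks, in untransfected ESCs and in ESCs with shGFP or shSuz12; each bar is 1 library. Cdkn2a stood at 597 bp in ESCs, 7195 bp with shGFP and 2771 bp with shSuz12. Its ratio of shSuz12 to shGFP was the lowest of the 5 genes with peaks in shGFP (0.385, against 0.677 at Cdkn2c, the next).

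At the other genes with peaks in both libraries, the ratio of shSuz12 to shGFP was between 0.677 and 0.983. Cdkn1a had 6 peaks in shGFP, at -7728 to -6856, -6367 to -5205, -4317 to -3364, 1539 to 2539, 5763 to 8271 and 9344 to 10193 bp, with scores of 105, 218, 90.3, 98.7, 437 and 137. In shSuz12 it had 9 peaks, with scores from 34.9 to 116. Those upstream lay at -8444 to -7957, -7483 to -6889, -6755 to -6174, -6154 to -5243 and -2122 to -1611 bp. Their scores were 40.5, 35.3, 35.9, 116 and 39.2. The first-intron peak was about as wide as in shGFP, at 1431 to 2497 bp, and the wide peak over the coding exons was split into those at 6187 to 6779, 6962 to 7872 and 7973 to 8577 bp. The covered bp were 7350 and 6265, a ratio of 0.852. The shSuz12 peaks that began at -8444, -7483, -6755, -2122 and 7973 bp scored below the lowest score of the shGFP list. At a score of at least 80 the covered bp were 7350 in shGFP and 1823 in shSuz12. At that floor 86.8% of all genes with any in shGFP had 50% or less. Within 10 kb of the gene start, 31.3% was covered in shSuz12, and 0.894% of all genes were covered at least as much.

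Cdkn1b had 1917 and 1885 covered bp in shGFP and shSuz12, a ratio of 0.983, but not at the same positions. Both had peaks at the upstream pair, at -6342 to -5633 and -5045 to -4476 bp in shGFP and at -6285 to -5478 and -5181 to -4551 bp in shSuz12. The shGFP peak at -1283 to -647 bp, with a score of 50.1, had no counterpart in shSuz12. The shSuz12 peaks at 10118 to 10559 and 15109 to 15928 bp, with scores of 73.0 and 41.5, had none in shGFP, which was the one library without a peak in the downstream region. The score of 41.5 is below the lowest score of the shGFP list.

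Of the other INK4 genes, Cdkn2b had its single peak in shSuz12, at 3892 to 4465 bp over the last part of the gene, with a score of 36.2 that is below the lowest score of the shGFP list. Cdkn2c had 1 peak in shGFP, at 1498 to 2375 bp and so over the start of its shorter transcript, with a score of 78.3. In shSuz12 its peak was at 7910 to 8503 bp with a score of 35.3, past the end of the gene. Cdkn2d had covered bp of 2890 and 2345, a ratio of 0.811, from 4 peaks in each library. The peaks at 4851 to 5668, 7251 to 7694 and 11325 to 12175 bp in shGFP scored 53.4, 55.5 and 74.5. They overlapped those at 5450 to 6035, 7263 to 7975 and 11432 to 12076 bp in shSuz12, which scored 35.7, 63.2 and 97.1. The shGFP peak at 9912 to 10688 bp (50.8) and the shSuz12 peak at -9526 to -9126 bp (45.3) overlapped none. The shSuz12 scores of 35.7 and 45.3 are below the lowest score of the shGFP list. At a score of at least 80, covered bp were 0 in shGFP and 645 in shSuz12.

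The peaks of the 6 libraries merged into 33 regions. Of these 12 had a peak in 1 library, 9 in 2, 4 in 3, 4 in 4, 3 in 5 and 1 in all 6. Sharing was not counted over the whole genome, so no share of all regions stands beside the counts of this paragraph. Among the 4 cell types, 2 regions were shared by all, the first intron of Cdkn1a and the region downstream of Cdkn1b, and 8 had peaks in the hairpin libraries alone. Of these 8, those at -4317 to -3364 bp of Cdkn1a and at 922 to 1433 bp of Cdkn2a had scores of 90.3 and 91.5 in shGFP. The others had only scores below 80, the lowest score of the ESC and liver lists, so their absence there may reflect the unequal floors. The regions in 5 libraries were the coding end of Cdkn1a and a stretch of Kri1 beside Cdkn2d, both without MEFs, and the region downstream of Cdkn1b, without shGFP.

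A list of 21 other genes of the pathway, chosen by role, was set beside the inhibitors: cyclins, their kinases, the Rb family, E2F factors and regulators of the inhibitors. Of these, 19 had a peak in the gene or within 10 kb in ESCs, 18 in MEFs, 20 in brain, 18 in liver, 20 in shGFP and 18 in shSuz12, where 68.0 to 77.6% of all genes had one. Within 1 kb of the gene start the counts were 4, 4, 6, 11, 4 and 2 of 21, or 19, 19, 28.6, 52.4, 19 and 9.52%, where all genes had 31.9, 30.1, 20, 29.4, 27.1 and 21.4%. The median share of the 10 kb on each side of the start under peaks was 20.2, 13, 12.4, 24.2, 11.3 and 8.51%, above the medians of all genes given earlier in each library. None of the 21 had a peak within 1 kb of its gene start in all 4 cell types. At the gene start 8 (38.1%, against 40.6% of all genes) had none in any library. They were cyclin genes Ccnd1, Ccnd2, Ccne1 and Ccna2, the kinase gene Cdk6, E2f3, Trp53, which encodes p53, and Cks1b, a cofactor in p27 breakdown. Later transcript starts differ, as that of Trp53 at 8336 bp had a peak within 1 kb in all 6 libraries. Ccnd1, Ccne1, E2f3 and Cks1b also had one at a later start in some library. Ccnd2, Ccna2 and Cdk6 had none at any annotated start. Covered bp in shSuz12 were at most 50% of those in shGFP at 5 of 20 genes of this list, near the 26.9% of all genes. Cdkn1c, which encodes the third KIP inhibitor p57 and is imprinted, had between 6.13% (shSuz12) and 21.8% (MEFs) of its gene and flanks under peaks, and 14.4% in ESCs. Its covered bp were 3224 in shGFP and 1392 in shSuz12, a ratio of 0.432.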

How the data were processed

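Per the labels and the study's methods, the authors aligned GLIB-Seq reads to mm9 (Bowtie 0.12.7), used only uniquely placed reads without duplicates, and called peaks library by library (MACS 1.4.1). The deposited values are peak positions and a score per peak, taken as 10 times the negative log10 of the MACS p-value. How each list was thresholded, and against which control, is not given in the sources used here. Peaks were compared with GENCODE release 1 of NCBIM37, the same assembly as mm9, and starts were made 1-based. A peak was assigned by an overlap of at least 1 bp with the gene or 10 kb on each side, and covered bp are those under any peak. With 1 library per condition no test was run. The 6 genes, the pathway list and the alternatives were chosen with earlier results of these data known. Named genes were the 6, Cdkn1c, neighbours under a listed peak, and genes of the pathway list with a peak within 1 kb of the gene start in all 4 cell types or in none of the 6 libraries. The RNA-Seq libraries were not analysed here. The steps were tested on simulated peaks. Python 3.11.15, numpy 2.4.6 and matplotlib 3.10.9 were used.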

Additional observations from a re-analysis of the deposited data

How the results depend on the processing

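The unknown depth and the unequal lowest scores limit all comparisons between libraries. No paired analysis was possible because no group holds more than 1 library. Of 112 values under an alternative, 77 stayed within 1.5 times the reported value and 35 did not; the cause was not tested.

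With a score of at least 80, genes with a peak were 2 in brain, 3 in shGFP and 2 in shSuz12, and covered shares 1.43% in MEFs, 1.05% in brain and 1.54% in shSuz12. Genes with a peak within 1 kb of the start were then 1 in MEFs, 1 in shGFP and 0 in shSuz12. Covered bp in shSuz12 were at most 50% of those in shGFP at 3 genes (all 3 with any in shGFP, as at 86.8% of all genes), and those in ESCs at most 50% of those in brain at 0. Keeping only the upper 50% of each list by score, 3 genes had a peak in shGFP, and the shares were 1.43% in MEFs, 3.61% in brain, 8.02% in liver and 5.21% in shSuz12. Near the start there was 1 in MEFs and 1 in shGFP, 2 genes had at most 50% of the shGFP bp in shSuz12, and 0 had at most 50% of the brain or the liver bp in ESCs. A flank of 5 kb gave 2 genes with at most 50% of the shGFP bp in shSuz12 and 2 with at most 50% of the liver bp in ESCs. A flank of 20 kb gave 9.76% covered in brain and 0 genes with at most 50% of the brain bp in ESCs. Starts of 500 bp on each side gave 0 in MEFs, shGFP and shSuz12 and 1 in liver. Those of 2 kb, and likewise the start of any transcript, gave 1 in brain, 4 in shGFP and 2 in shSuz12. Assignment by midpoint moved no count by over 1.5 times.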
